A study of Mus musculus with 6 samples.

Results

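The 10 genes described here encode receptors, co-receptors and Smad proteins of the transforming growth factor beta (TGF-beta) pathway. They are Tgfbr1, Tgfbr2, Tgfbr3, Eng, Acvrl1, Smad2, Smad3, Smad4, Smad6 and Smad7. The genes were picked by name, with earlier results of these data known, and all 10 were among the 17572 protein-coding genes of the count table. The series sequenced RNA from skin scars of wild-type C57BL/6 mice, 2 weeks after the operation. Hypertrophic scars (HS, n = 3 libraries) were taken from the upper back, where the edges of the wound had been pulled and stitched to the rib cage under tension. Normal scars (NS, n = 3 libraries) came from the lower back, closed where it lay and under no tension. Setting HS against NS asks how a scar formed under tension differs from one formed without it, but the site on the back differed along with the tension, and their effects cannot be told apart. Whether each library stands for its own mouse is not stated in the labels. The p-values therefore measure only how far these samples spread, and that spread may be technical.

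TGF-beta is the main growth factor known to drive scar formation, and it makes skin fibroblasts secrete collagen and turn contractile. The ligand binds the type II receptor, the product of Tgfbr2, which then phosphorylates a type I receptor, usually the product of Tgfbr1 (ALK5). Betaglycan (Tgfbr3) and endoglin (Eng) are co-receptors that have no kinase activity of their own, and Acvrl1 encodes ALK1, a type I receptor of endothelial cells that also binds BMP9 and BMP10. The active type I receptor ALK5 phosphorylates Smad2 and Smad3, which join Smad4 and enter the nucleus. Smad6 and Smad7 are the inhibitory Smads, are themselves induced by the pathway, and shut the receptors down.

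The promoters of Tgfbr2 and Eng, which stood higher in every HS library than in every NS library, and of Smad6, which stood lower, are shown first, since HS and NS did not overlap for these 3 genes. Each window runs from 250 bases before to 50 bases after the annotated start in RefSeq, build GRCm38.p6. The windows are chr9:116175314-116175613 on the minus strand for Tgfbr2, chr2:32646345-32646644 on the plus strand for Eng and chr9:64022010-64022309 on the minus strand for Smad6. Capitals mark CAGAC, the core of the CAGA box that Smad3 and Smad4 bind, on either strand, and the palindrome GTCTAGAC, a high-affinity Smad site.
Tgfbr2: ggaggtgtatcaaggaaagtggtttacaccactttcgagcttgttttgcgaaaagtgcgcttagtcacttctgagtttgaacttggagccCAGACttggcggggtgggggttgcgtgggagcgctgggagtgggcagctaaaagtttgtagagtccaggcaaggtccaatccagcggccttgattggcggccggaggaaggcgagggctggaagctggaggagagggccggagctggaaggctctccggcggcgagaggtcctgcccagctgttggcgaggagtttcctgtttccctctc
Eng: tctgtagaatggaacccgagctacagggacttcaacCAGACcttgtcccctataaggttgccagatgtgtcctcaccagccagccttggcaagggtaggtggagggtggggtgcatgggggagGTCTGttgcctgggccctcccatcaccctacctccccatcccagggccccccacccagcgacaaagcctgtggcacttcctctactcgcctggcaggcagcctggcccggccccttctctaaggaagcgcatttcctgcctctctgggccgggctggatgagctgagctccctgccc
Smad6: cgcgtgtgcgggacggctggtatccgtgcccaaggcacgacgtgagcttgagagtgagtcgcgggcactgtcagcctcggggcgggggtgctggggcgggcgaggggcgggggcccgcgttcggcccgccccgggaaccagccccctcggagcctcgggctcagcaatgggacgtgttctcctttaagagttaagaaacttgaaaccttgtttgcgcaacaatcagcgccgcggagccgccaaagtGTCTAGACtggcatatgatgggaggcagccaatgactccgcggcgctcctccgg

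The Tgfbr2 window held 1 match to CAGAC, beginning 160 bases before the start. The Eng window held 2, beginning 214 and 127 bases before it, the second on the opposite strand. CAGAC is common, with a match on either strand in 49.6% of 32851 promoter windows of the same length. Smad6 had no CAGAC match but held GTCTAGAC, beginning 4 bases before the start, a palindrome found in 0.213% of the windows. Smad6 also held 4 GC boxes (GGGCGG, either strand), a number reached by 5.49% of the windows, while Tgfbr2 and Eng held no GC box and 35.7% of all windows held at least 1. Neither CGGAAG, 1 of several sequences that ETS factors bind, nor TATAAA was found in the 3 windows, against 16.9% and 13.6% of all windows with each. Other ETS sequences were not searched for, so the windows may hold them. The table held a window outside chromosome 18 for 5 of the 10 genes, the other two being Tgfbr1 (2 starts) and Smad3. These matches are descriptions of letters, not of binding.

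In the build mm10, Tgfbr1 lies on chromosome 4 (47353222 to 47414931), Tgfbr2 on chromosome 9 (116084293 to 116175360), Tgfbr3 on chromosome 5 (107106570 to 107289629), Eng on chromosome 2 (32646595 to 32682669) and Acvrl1 on chromosome 15 (101128522 to 101145336). Smad3 (63646767 to 63757994) and Smad6 (63953076 to 64022059) are near each other on chromosome 9. Smad2 (76241580 to 76310963), Smad4 (73639009 to 73703780) and Smad7 (75367529 to 75395935) share chromosome 18. Exons of 3 of the 10 genes overlap those of another annotated gene, over 297 bases in Tgfbr3 (4.54% of its exon bases, Gm43422, same strand), 61 bases in Eng (1.51%, Fpgs, opposite strand) and 127 bases in Acvrl1 (2.98%, the antisense gene Gm16031). The sources used here do not say whether the counting used the strand or how it treated reads shared between genes. These counts can therefore hold some reads of the neighbour or lack some of their own.

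Summed counts per library ran from 22442713 to 27859889 in HS and from 20375395 to 24828715 in NS, so that 1 count was worth at most 0.04908 CPM (counts scaled to the library total, which for the gene values below was adjusted by TMM). On the first principal component, HS replicate 2 (10.2) lay nearer to the NS libraries (-38.7 to -33.5) than HS replicates 1 (57.8) and 3 (40.5) did. Markers of skin were present in every library, with keratinocyte markers summing to 18870 to 29480 CPM in HS and 27500 to 36280 CPM in NS. Marker lists of several other cell types differed between the groups. The counts given here are of genes at an edgeR adjusted p below 0.05. Of all 14513 tested genes 8.85% passed it (6.33% higher and 2.51% lower). Of 15 endothelial markers 10 were higher in HS and none lower, their summed level being 420.5 to 702.6 CPM in HS and 257.8 to 273.3 CPM in NS, and none was at 0 in either group. Of 10 fibroblast markers 6 were higher (14470 to 27090 CPM in HS, 7107 to 9018 CPM in NS), as were 4 of 9 pericyte and vascular smooth muscle markers, 1 of which was lower (801.1 to 1267 CPM in HS, 698.3 to 781.1 CPM in NS). Of 10 macrophage and monocyte markers tested 1 was higher (1088 to 2960 CPM in HS, 783.6 to 976.7 CPM in NS), of 7 lymphatic endothelial markers 2, of 7 T and NK cell markers 1, and of 10 skeletal muscle markers 1 was higher and 1 lower. Of 12 keratinocyte markers 2 were lower and of 10 hair follicle markers 3. At an unadjusted edgeR p below 0.05, 8 of the 10 macrophage and monocyte markers were higher, against 26.3% of all tested genes in either direction. So were all 7 lymphatic endothelial markers and 2 of the 7 T and NK cell markers, while 7 keratinocyte and 9 hair follicle markers were lower. Of 6 adipocyte markers edgeR called 0, with 1 at an unadjusted p below 0.05 and 0 called by DESeq2 or limma-voom. In whole tissue, more cells of a type and more RNA per cell cannot be told apart, and the part of cell composition in the results below was not tested except where a value is given.

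The co-receptors and the endothelial type I receptor were higher in HS, while the ALK5 receptor gene and the Smads that carry the signal showed no called difference. Eng rose 2.31-fold, Acvrl1 1.91-fold and Tgfbr3 1.64-fold. Tgfbr2 was 1.96-fold higher without passing the test. The inhibitory Smads Smad6 and Smad7 were 0.702-fold and 0.723-fold as high as in NS, without passing. In all, 3 of the 10 genes (30%) passed at an adjusted p below 0.05 in edgeR's quasi-likelihood test, all higher in HS, against 8.85% of the 14513 genes tested (6.33% higher and 2.51% lower). None of the 10 was called lower by edgeR, DESeq2 or limma-voom, and 1, Smad6, was lower at an unadjusted p below 0.05. With 1 gene worth 10% of the group, this share is a description of 10 genes. Their median log2 fold change was 0.18, against -0.01 over all tested genes. For 6 of the 10 the values of HS and NS lay apart, 4 higher (17.2% of all tested genes) and 2 lower (15.2%), against 32.3% of all tested genes in either direction. At an unadjusted edgeR p below 0.05, 5 of the 10 differed, against 26.3% of all tested genes. Of all called genes 71.6% were higher in HS, or 61.4% with no scaling factor beyond the library total, and the 3 calls among the 10 genes were made in that scaling too. The number of the 10 called was 2 without HS replicate 1 and 4 without HS replicate 2. It was 0 without HS replicate 3 and without each of the NS replicates, fits in which edgeR called 25 to 148 genes in all.

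**Figure D1:**
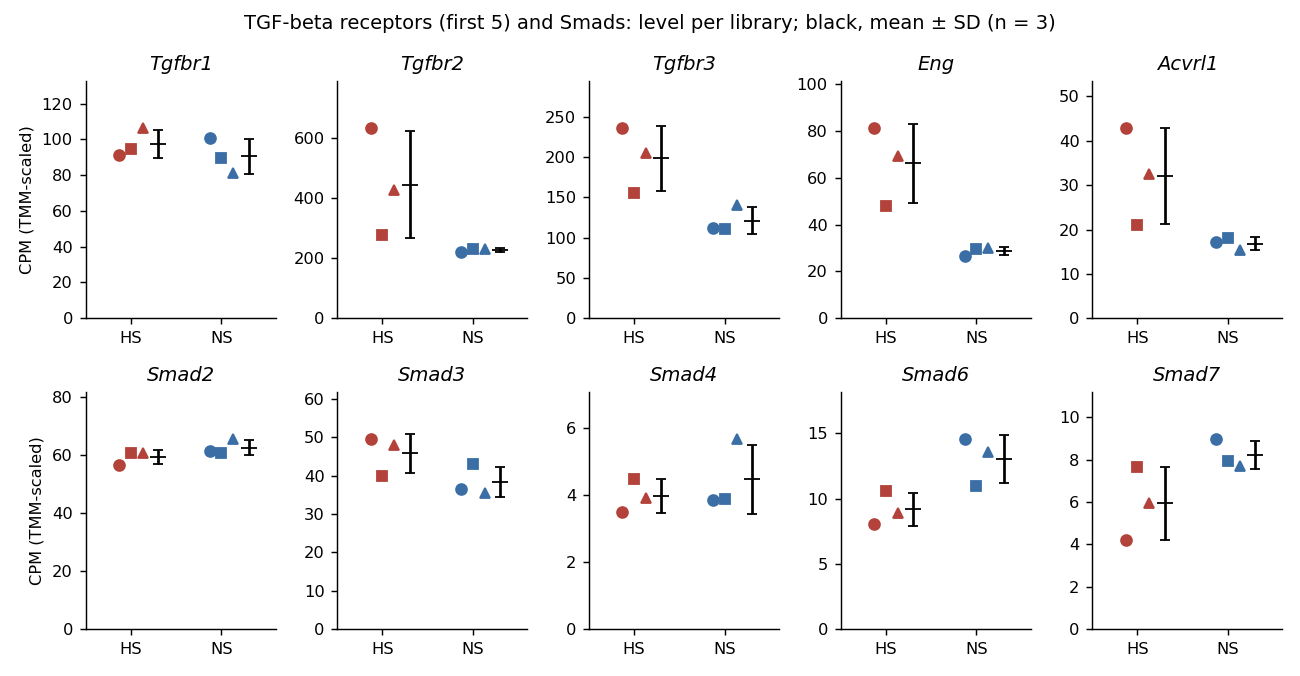
CPM (vertical axes, linear, from 0) of the 10 genes in each HS library (red) and each NS library (blue), with circles for replicate 1, squares for replicate 2 and triangles for replicate 3, and the mean ± SD in black. Eng, Acvrl1, Tgfbr2 and Tgfbr3 lie higher in each HS library than in any NS library, with HS replicate 2 the lowest of the HS libraries, and Smad6 and Smad7 lie lower.

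Eng encodes endoglin, a co-receptor that is abundant on the endothelium of growing vessels. It stood at 81.1, 47.9 and 69.5 CPM in HS replicates 1, 2 and 3, against 26.5, 29.8 and 29.8 CPM in NS replicates 1, 2 and 3. The groups did not overlap, and the lowest HS library was 1.67-fold above the NS mean. The log2 fold change was 1.21 ± 0.181 (SE, n = 3 each, edgeR adjusted p = 0.01244), with a 95% interval of the fold from 1.73 to 3.07. By p-value Eng ranked 136 of the 14513 genes. The call was lost when any 1 of 4 libraries was left out, in fits that called 25 to 148 genes in all. The edgeR adjusted p was 0.0506 without HS replicate 3 and 0.0672, 0.0764 and 0.0657 without NS replicates 1, 2 and 3. The log2 fold change stayed between 1.03 and 1.39 in the 14 alternatives, with adjusted p from 1.225e-07 to 0.0764.

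Acvrl1, the gene of ALK1, had 42.8, 21.1 and 32.5 CPM in HS replicates 1 to 3 and 17.1, 18.0 and 15.3 CPM in NS replicates 1 to 3. All HS values were above all NS values, but HS replicate 2 exceeded the highest NS library by little. The log2 fold change was 0.94 ± 0.237 (SE, n = 3 each, edgeR adjusted p = 0.04542), and the 95% interval of the fold ran from 1.32 to 2.78. The call was lost without HS replicate 1 (log2 fold change 0.68, adjusted p = 0.0571), without HS replicate 3 (adjusted p = 0.136) and without NS replicates 1, 2 and 3 (adjusted p = 0.142, 0.145 and 0.15). It was also lost with limma-voom (adjusted p = 0.0732), and over the 14 alternatives the adjusted p ran from 0.000308 to 0.15.

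Tgfbr3 encodes betaglycan, which presents TGF-beta, in particular TGF-beta2, to the type II receptor and can also be shed as a soluble binder. Its values were 235.5, 155.5 and 205.0 CPM in HS replicates 1 to 3 and 112.0, 111.0 and 140.2 CPM in NS replicates 1 to 3. The groups lay apart, with the HS mean at 198.6 ± 40.4 CPM and the NS mean at 121.0 ± 16.6 CPM (SD, n = 3 each). The log2 fold change was 0.71 ± 0.160 (SE, edgeR adjusted p = 0.03399). Without HS replicate 3 the adjusted p was 0.120, and without NS replicates 1, 2 and 3 it was 0.128, 0.143 and 0.0721. The 14 alternatives gave log2 fold changes of 0.57 to 0.86 and adjusted p-values of 0.000255 to 0.143.

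Tgfbr2, the type II receptor on which TGF-beta signalling depends, had 632.1, 276.2 and 426.7 CPM in HS replicates 1 to 3, against 219.0, 232.2 and 229.0 CPM in NS replicates 1 to 3. The 3 NS libraries lay within 1.06-fold of each other, while the highest HS library was 2.29-fold above the lowest. The fold difference of 1.96 had a 95% interval of 1.24 to 3.10, and it did not pass (log2 fold change 0.97 ± 0.276, SE, edgeR adjusted p = 0.0789). It passed without HS replicate 2 (log2 fold change 1.22, adjusted p = 0.000611), with DESeq2 (adjusted p = 0.000972) and without edgeR's robust step (adjusted p = 0.0445). Without HS replicate 1 the log2 fold change was 0.63 (adjusted p = 0.0565), and over all 14 alternatives the adjusted p ran from 0.000611 to 0.206. The coefficient of variation of Tgfbr2 was 40.2% in HS and 3.04% in NS. The medians over the 12313 genes with a mean of at least 3 CPM were 11.7% in HS and 9.03% in NS.

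Tgfbr1, the gene of ALK5, had 91.3, 94.8 and 106.1 CPM in HS replicates 1 to 3 and 100.8, 89.6 and 81.4 CPM in NS replicates 1 to 3. The groups overlapped, with HS replicates 1 and 2 inside the range of NS. The fold was 1.08 with a 95% interval of 0.915 to 1.26 (edgeR adjusted p = 0.562), so a difference above 1.26-fold lies outside that interval.

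**Figure D2:**
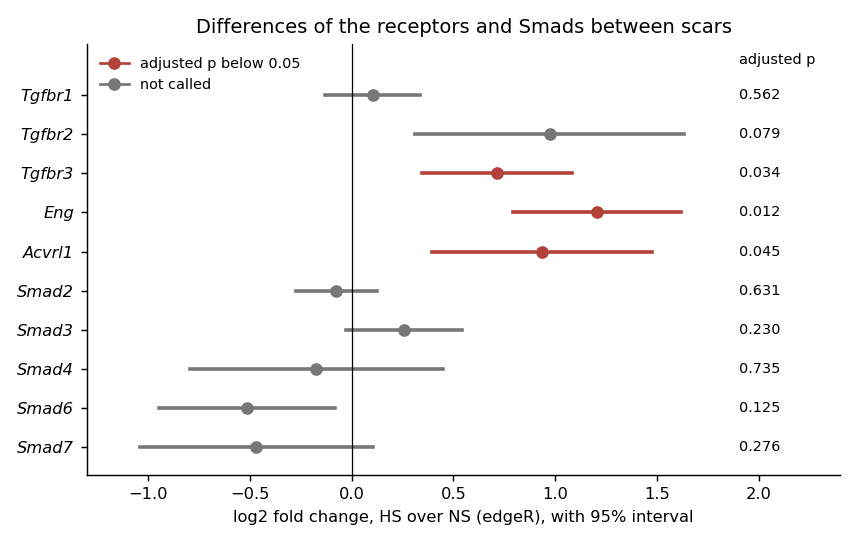
Log2 fold change of HS over NS from edgeR (points) with 95% intervals (lines) for the 10 genes, with adjusted p-values at the right; red marks the 3 genes with an adjusted p below 0.05 and grey the others. The intervals of Tgfbr1, Smad2, Smad3, Smad4 and Smad7 cross 0, and those of Tgfbr2 and Smad6 do not, though neither passed after adjustment.

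The Smads that carry the signal gave no called difference. Smad2, one of the 2 receptor-activated Smads of the TGF-beta branch, had 56.6, 60.9 and 60.6 CPM in HS replicates 1 to 3 and 61.3, 60.8 and 65.5 CPM in NS replicates 1 to 3. It varied least of the 10 genes within HS, with a coefficient of variation of 4.04% there and 4.14% in NS. The 95% interval of its fold, 0.827 to 1.09, was also the narrowest (fold 0.949, edgeR adjusted p = 0.631). Smad3, the other receptor-activated Smad, which binds DNA directly and is the one most tied to fibrosis in mice, had 49.5, 40.0 and 47.9 CPM in HS and 36.5, 42.9 and 35.5 CPM in NS. HS replicates 1 and 3 lay above every NS library and HS replicate 2 lay among them. The fold was 1.2 (95% interval 0.983 to 1.45, adjusted p = 0.230). Smad4, the common partner of the receptor-activated Smads, had 3.5, 4.5 and 3.92 CPM in HS and 3.85, 3.89 and 5.68 CPM in NS, from 81 to 142 counts per library. Its groups overlapped, and its interval (fold 0.886, 0.577 to 1.36, adjusted p = 0.735) was the widest of the Smads that carry the signal. Without NS replicate 3 its log2 fold change was 0.03, against -0.17.

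The inhibitory Smads lay lower in HS without passing. Smad6, which acts mainly on BMP receptors, had 8.05, 10.6 and 8.90 CPM in HS replicates 1 to 3 and 14.6, 11 and 13.6 CPM in NS replicates 1 to 3, a gap of less than 1 CPM separating HS replicate 2 from NS replicate 2. Its fold was 0.702 (95% interval 0.520 to 0.947, log2 fold change -0.51 ± 0.192, SE), with an unadjusted edgeR p of 0.0253 and an adjusted p of 0.125. Smad7, which blocks TGF-beta and BMP type I receptors, had 4.21, 7.66 and 5.93 CPM in HS and 8.96, 7.93 and 7.72 CPM in NS. HS replicate 2 and NS replicate 3 were nearly level, while HS replicate 1 was at 0.513 of the NS mean. The fold of Smad7 was 0.723 (95% interval 0.486 to 1.07, adjusted p = 0.276). Neither gene passed in any of the 14 alternatives, with adjusted p-values of 0.0576 to 0.304 for Smad6 and 0.0864 to 0.566 for Smad7.

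**Figure D3:**
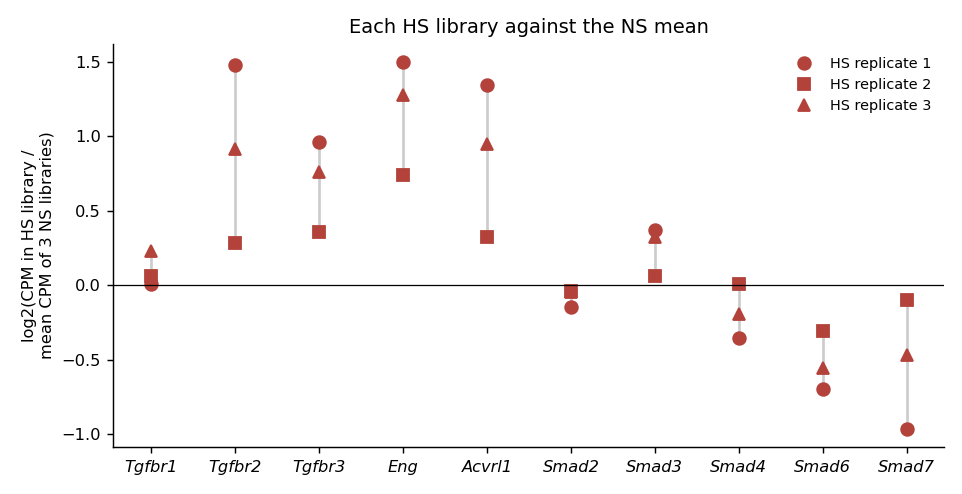
Log2 ratio of the CPM in each HS library to the mean CPM of the 3 NS libraries (vertical axis) for each gene, with circles, squares and triangles for HS replicates 1, 2 and 3. HS replicate 1 lies farthest from 0 and HS replicate 2 nearest to it in 9 of the 10 genes, all but Tgfbr1, from 1.5 and 0.74 in Eng to -0.96 and -0.10 in Smad7.

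The size of the difference from NS varied from one HS library to another in the same order across most of the genes. In 5 genes (Tgfbr2, Tgfbr3, Eng, Acvrl1 and Smad3) HS replicate 1 was highest, replicate 3 in the middle and replicate 2 lowest, an order seen in 27.5% of all tested genes. In 4 (Smad2, Smad4, Smad6 and Smad7) the order was the opposite one, seen in 24.3% of all tested genes, and Tgfbr1 followed neither. HS replicate 1 was 2.79-fold above the NS mean in Tgfbr2 and HS replicate 2 was 1.22-fold above it. The summed endothelial markers followed the first order (702.6, 420.5 and 667.8 CPM in HS replicates 1, 2 and 3), as did the fibroblast markers (27090, 14470 and 22650 CPM). The keratinocyte markers followed the second (18870, 29480 and 20690 CPM). The part of these markers in the order was not tested.

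Per kilobase of exon, Tgfbr2 had the highest level of the 10 genes in both kinds of scar, at 54.4 ± 21.8 CPM per kilobase in HS and 27.7 ± 0.841 in NS (SD, n = 3 each). Tgfbr3 followed at 30.4 ± 6.17 in HS and 18.5 ± 2.53 in NS. In HS, Eng (16.4 ± 4.17) and Tgfbr1 (14.9 ± 1.18) came next and did not differ beyond their spread, whereas in NS Tgfbr1 (13.9 ± 1.5) lay above Eng (7.09 ± 0.465). Smad3 (8.26 ± 0.920), Acvrl1 (7.53 ± 2.55) and Smad2 (6.76 ± 0.273) were not separated in HS. Smad2 (7.12 ± 0.295) and Smad3 (6.92 ± 0.728) were not separated from each other or from Eng in NS, where Acvrl1 (3.94 ± 0.328) was level with Smad6 (4.07 ± 0.575). Smad6 stood at 2.86 ± 0.399 in HS, and the lowest places in both groups were held by Smad7 (1.31 ± 0.382 in HS, 1.81 ± 0.148 in NS) and Smad4 (1.07 ± 0.136 in HS, 1.2 ± 0.281 in NS). Tgfbr1, Tgfbr2, Tgfbr3 and Eng thus stood above both inhibitory Smads in both groups. These levels use every annotated exon of a gene, so isoforms that leave exons out read lower than they are.

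Ratios of counts within a library do not depend on how the libraries are scaled. Tgfbr1 had 0.145, 0.343 and 0.249 counts per count of Tgfbr2 in HS replicates 1 to 3, against 0.461, 0.386 and 0.355 in NS replicates 1 to 3. The balance of the type I to the type II receptor was therefore lower in every HS library, with a log2 difference of -0.79 (exact two-sided permutation test over 20 splits, p = 0.1, the smallest that 3 against 3 allows; Benjamini-Hochberg adjusted p = 0.267 over 8 ratios). Acvrl1 had 0.469, 0.222 and 0.307 counts per count of Tgfbr1 in HS, against 0.170, 0.201 and 0.188 in NS, so ALK1 stood higher relative to ALK5 in each HS library (exact p = 0.1, adjusted p = 0.267). Eng stood higher relative to Tgfbr3 as well, with 0.344, 0.308 and 0.339 in HS and 0.237, 0.268 and 0.213 in NS (exact p = 0.1, adjusted p = 0.267). These 3 of the 8 ratios did not overlap between the groups. The log2 difference of Tgfbr1 to Tgfbr2 was -0.45 without HS replicate 1 and -1.07 without HS replicate 2. That of Acvrl1 to Tgfbr1 was 0.49 without HS replicate 1 and 1.03 without HS replicate 2, against 0.77 with all libraries. Smad7 per count of Smad3 was 0.0851, 0.192 and 0.124 in HS and 0.246, 0.185 and 0.217 in NS, overlapping through replicate 2 of each group (exact p = 0.2, adjusted p = 0.267), and its log2 difference of -0.76 was -0.48 without HS replicate 1. The ratios of Smad3 to Smad2, of Eng to Acvrl1 and of Tgfbr3 to Tgfbr2 overlapped too, with mean log2 differences of 0.33, 0.29 and -0.19. Smad6 to Smad7 differed by -0.00 on that scale (1.91, 1.38 and 1.5 in HS, 1.62, 1.39 and 1.76 in NS).

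Endothelial cells express Eng and Acvrl1 strongly, so each gene was set against the summed counts of the 15 endothelial markers of its own library. Eng amounted to 11.5%, 11.4% and 10.4% of the marker counts in HS replicates 1 to 3 and to 9.71%, 11.6% and 11.5% in NS replicates 1 to 3. On this scale its groups overlapped and the mean log2 difference was 0.03, ranging from -0.05 to 0.08 when single libraries were left out. Acvrl1 amounted to 6.09%, 5.01% and 4.87% in HS and 6.27%, 6.99% and 5.87% in NS, a log2 difference of -0.26 with overlap. Tgfbr2 overlapped as well, at 90.0%, 65.7% and 63.9% in HS and 80.1%, 90.1% and 88.0% in NS. The other 7 genes lay lower in HS on this scale without overlap, and the share of all tested genes that did so was not computed. Smad6 was at 1.15%, 2.51% and 1.33% in HS and 5.33%, 4.27% and 5.22% in NS. Smad7 was at 0.599%, 1.82% and 0.888% in HS and 3.28%, 3.07% and 2.97% in NS. The marker sum itself was 2.26-fold as high in HS as in NS, so a gene at the same level in both groups reads lower in HS on this scale. Smad6 was at 0.318 and Smad7 at 0.319 of the NS level on it, beside 0.43 for Smad2, 0.407 for Smad4 and 0.488 for Tgfbr1. With Pecam1 and Cdh5 alone as the markers, the log2 differences were -0.25 for Eng and -0.54 for Acvrl1. No test was made on this scale, and several cell types express these genes. The summed fibroblast markers were 2.57-fold and the summed macrophage and monocyte markers 2.25-fold as high in HS as in NS. The genes were not set against those lists.

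**Figure D4:**
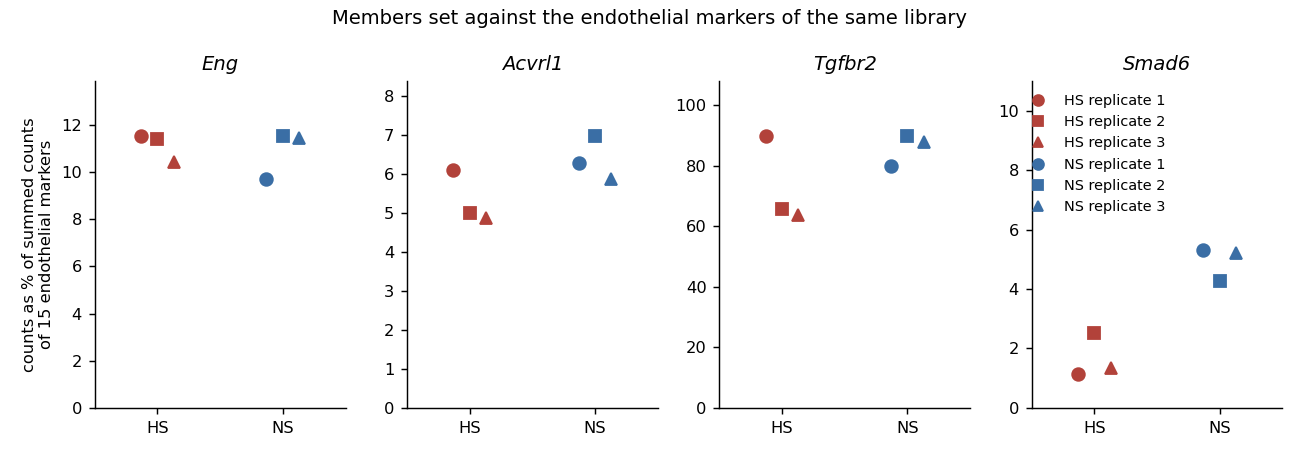
Counts of Eng, Acvrl1, Tgfbr2 and Smad6 as a percentage of the summed counts of 15 endothelial markers in the same library (vertical axes, linear, from 0), for HS (red) and NS (blue), with circles, squares and triangles for replicates 1, 2 and 3. Eng lies between 10.4% and 11.5% in HS and between 9.71% and 11.6% in NS, while Smad6 lies lower in every HS library. The marker sum was 2.26-fold as high in HS as in NS, so a gene at the same level in both groups also reads lower in HS.

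Of 81 other tested genes of the pathway, 20 were higher in HS and 2 lower (27.2% called, against 8.85% of all genes), and their median log2 fold change was 0.12. The call counts of the lists below changed when single libraries were left out, as did the calls over all genes. Those were 1284 with all libraries. They were 1084, 3257 and 148 without HS replicates 1, 2 and 3, and 94, 25 and 48 without NS replicates 1, 2 and 3. Leaving out HS replicate 1, 2 or 3 turned the 22 calls into 17, 36 and 3, and leaving out NS replicate 1, 2 or 3 turned them into 1, 0 and 0.

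Among 13 genes of ligands and latency 5 were higher and none lower, with a median log2 fold change of 0.56. Leaving out HS replicate 1, 2 or 3 gave 4, 9 and 3 calls, and leaving out NS replicate 1, 2 or 3 gave 1, 0 and 0. Ltbp2 encodes a matrix protein that belongs by name to the family of latent TGF-beta binding proteins. It had 26.8, 16.6 and 21.9 CPM in HS replicates 1 to 3 and 6.17, 8.12 and 6.56 CPM in NS replicates 1 to 3 (edgeR adjusted p = 0.00784). Lrrc32, which holds latent TGF-beta at the cell surface, was at 42.8, 25.7 and 37.4 CPM in HS and 12.7, 13.9 and 12.1 CPM in NS (adjusted p = 0.00811). The ligand Tgfb3 and Itgav, an integrin chain that helps to release TGF-beta, also rose (adjusted p = 0.00838 and 0.0195). The ligand Tgfb1 had 38.5, 29.4 and 38.9 CPM in HS and 23.7, 26.0 and 25.2 CPM in NS, which did not overlap and did not pass (adjusted p = 0.0522). DESeq2 called it (adjusted p = 0.0132), as did edgeR without HS replicate 2 (0.00446) or when all genes were tested (0.0486). Elsewhere its adjusted p reached 0.190.

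Among 12 other receptors and co-receptors of the family, 1 was higher and 1 lower, and the median log2 fold change was -0.12. Nrp1, a co-receptor for VEGF and semaphorins that also binds TGF-beta, had 185.0, 107.6 and 168.0 CPM in HS and 92.3, 80.0 and 83.9 CPM in NS (adjusted p = 0.0368, and 0.0554 to 0.140 without each library other than HS replicate 2). Bambi, a pseudoreceptor that lacks the kinase domain and dampens TGF-beta and BMP signals, fell, with 41.5, 47.9 and 40.5 CPM in HS against 64.5, 61.4 and 55.4 CPM in NS (adjusted p = 0.0310). Its adjusted p was 0.125 without HS replicate 3 and 0.123, 0.127 and 0.0774 without NS replicates 1, 2 and 3. Of 21 other Smads and Smad regulators 1 was called, a share of 4.76%. That gene was Pmepa1, a TGF-beta target that holds back Smad2 and Smad3, at 112.4, 88.6 and 107.5 CPM in HS and 65.8, 79.4 and 69.7 CPM in NS (adjusted p = 0.0285). It lost its call without HS replicate 3 (adjusted p = 0.106) and without NS replicates 1, 2 and 3 (adjusted p = 0.123, 0.0842 and 0.114). The median of that list was -0.01.

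Of 21 genes listed as TGF-beta targets, 10 were higher and 1 lower, with a median log2 fold change of 0.47. Tnc, which encodes the matrix protein tenascin C, had 1771, 711.5 and 1583 CPM in HS replicates 1 to 3 and 189.1, 250.3 and 259.5 CPM in NS replicates 1 to 3. That was a 5.82-fold rise (log2 fold change 2.54 ± 0.353, SE, edgeR adjusted p = 0.0153), in which HS replicate 2 showed the smallest. Col3a1, a collagen chain, and Itga11, an integrin chain that binds collagen, rose too (adjusted p = 0.0126 and 0.0137). Ctgf (Ccn2) had 60.9, 49.4 and 68.0 CPM in HS and 39.1, 47.7 and 53.5 CPM in NS, which overlapped (adjusted p = 0.184, and 0.0289 without HS replicate 2). The 1 lower gene, named after its values were seen, was Cdkn1a, which encodes the cell cycle inhibitor p21, with means of 163.3 CPM in HS libraries and 208.2 CPM in NS libraries (adjusted p = 0.0485). The list held no lower call with limma-voom, with DESeq2-type size factors, without edgeR's robust step or without any single library other than HS replicate 2. The called targets Col1a1 and Col3a1 are matrix genes of fibroblasts, and Col1a1 is in the fibroblast marker list too. Col1a1 (8173 CPM in HS, 3101 CPM in NS) and Col1a2 (8967 CPM in HS, 3316 CPM in NS) made up most of that list's summed level. Its members Lum, Dpt, Prrx1 and Dcn were called higher too (edgeR adjusted p = 0.00994, 0.0141, 0.0225 and 0.0276). Pdgfra, Fap, Fbln1 and Twist2 were not called (adjusted p = 0.0764, 0.0803, 0.112 and 0.191). All 10 fibroblast markers had a positive log2 fold change. The part of fibroblast number was not tested. The list had 11 calls with all libraries, 9 and 12 without HS replicates 1 and 2, and 0 without HS replicate 3 or any 1 NS replicate.

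Of 14 genes listed as targets of BMP and ALK1, 3 were higher and none lower, and the median log2 fold change was -0.16. The 3 were Bmper, a BMP-binding protein of endothelium (27.7 CPM in HS, 16.9 CPM in NS, adjusted p = 0.0424), Stab1, a scavenger receptor of endothelial cells and macrophages (170.5 and 77.2 CPM, adjusted p = 0.0435), and Tmem100, an endothelial gene downstream of ALK1 in mice. Tmem100 had 30.8, 12.5 and 19.9 CPM in HS and 10.1, 9.18 and 6.72 CPM in NS (adjusted p = 0.0459). The inhibitor of differentiation Id1, the most used readout of BMP and ALK1 signalling, was named after its values were seen. It stood at 18.4, 22.9 and 21.7 CPM in HS and 31.8, 29.8 and 26.8 CPM in NS, lower in every HS library without passing (adjusted p = 0.0586). In this list 7 of the 14 genes had an unadjusted edgeR p below 0.05, 4 of them lower, against 26.3% of all tested genes. Among the lower genes Msx2 (adjusted p = 0.0562) is in the hair follicle marker list too, which had 3 lower calls and 0 higher. The part of hair follicles was not tested. DESeq2 called 3 higher and 3 lower, as did edgeR with no factor beyond the library total, and limma-voom called 1 higher and 1 lower. Without HS replicate 2 the calls were 3 higher and 5 lower, without HS replicate 1 there was 1 higher, and without any other library there was none.

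**Figure D5:**
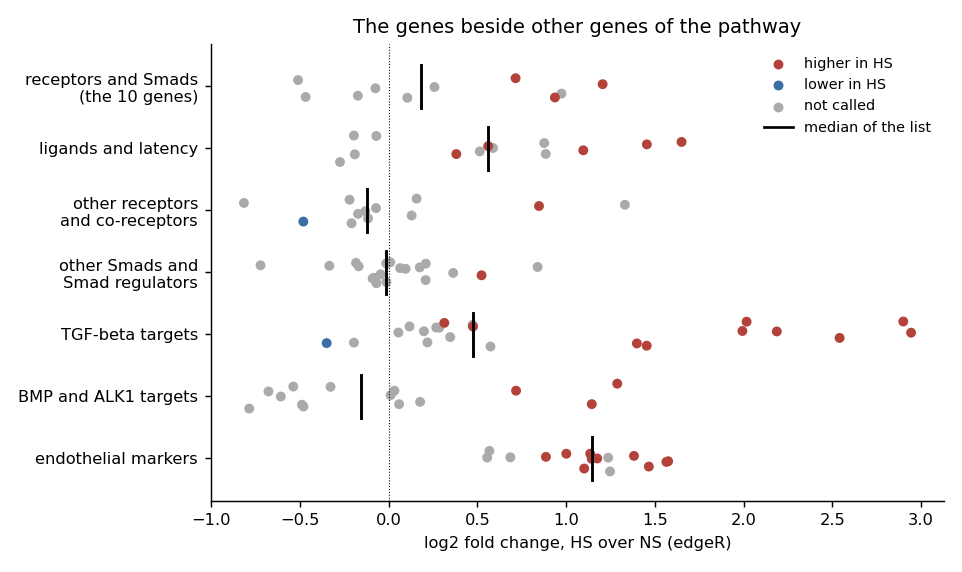
Log2 fold change of HS over NS (horizontal axis) for each tested gene of the receptors and Smads, of 5 other lists of the pathway and of the endothelial markers, with red for higher in HS, blue for lower, grey for not called and a black line at each list's median. The 10 receptors and Smads spread from -0.51 to 1.21, and the endothelial markers have a median of 1.14.

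Genes whose levels ran most like those of the 3 called genes were sought by Pearson correlation of log2(CPM + 0.01) over the 6 libraries, among 10197 genes with a mean of at least 10 CPM. Among the nearest to Eng were Col5a1 (r = 0.9997) and Thbs2 (r = 0.9995). Acvrl1 ran with Lrrn4cl, Notch4 and B4galt1 (0.9978 to 0.9987), and Tgfbr3 with Swap70, Tmem5 and Lman1 (0.9960 to 0.9962). Likeness over 6 libraries that fall into 2 groups is common, since 716 genes reached r of 0.95 with Eng, 577 with Acvrl1 and 481 with Tgfbr3. These values are a description that the difference between HS and NS dominates.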

How the data were processed

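RNA of 6 skin scar libraries, 3 HS and 3 NS, was sequenced. Per the labels' protocols, ribosomal RNA was removed from total RNA and libraries were read as paired ends. The authors deposited raw gene counts, as the file headers name them. The submitters' processing notes name cutadapt 1.9.3, HISAT2 2.0.4, HTSeq 0.9.1, edgeR and mm10, without their settings. Another 6 columns, normalized by the authors, were left out. Groups and replicate numbers came from the sample titles.

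The tests on counts used edgeR 4.0.16 (R 4.3.3). Genes were kept by filterByExpr (minimum count 10), which left 14513 of 17572, including all 10 described. A quasi-likelihood fit (TMM, robust, group as the only term) was adjusted by Benjamini-Hochberg over all tested genes at 0.05. The SE is the size of the log2 fold change divided by the root of its F statistic. CPM use TMM-scaled totals, and exon lengths come from GENCODE M21 (same build; 17398 identifiers matched). The procedure was tested on simulated data in which a gene had the same setting of spread in both groups. In these data HS libraries spread more than NS libraries, which that test did not cover. The members, lists and tests were chosen with earlier results of these data known. Named genes were the 10 members, Tgfb1, Ctgf, up to 4 called genes a list by p, and the 3 genes most like each called member; 1 gene that this rule takes is not reported here. Alternatives were DESeq2 1.42.0, limma-voom (limma 3.58.1), other scaling and filters, a replicate block and each library left out.

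Same-numbered libraries hardly deviated together, with r of 0.018, 0.0133 and 0.036 across genes, against -0.039 to 0.0146 for the other pairs of HS with NS. The numbers were therefore not taken to pair the samples. These values cannot settle whether HS and NS scars came from the same mice. Libraries of 1 group differed by more than sampling noise (chi-square per gene 14.2 to 107), so none was a copy. Intervals are those of the fit.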

Additional observations from a re-analysis of the deposited data

How the results depend on the processing

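The 14 alternative fits left the direction of 9 of the 10 genes as given. The exception was Smad4, whose log2 fold change ran from -0.28 to 0.029 with single libraries left out and was 0.029 without NS replicate 3. Of 8 count ratios that of Smad6 to Smad7 changed sign. Its log2 difference was -0.00 with all libraries and -0.14 to 0.10 with single libraries left out. Dropping HS replicate 2 or 3 gave 0.10 and 0.04, and dropping NS replicate 1 or 3 gave 0.02 and 0.07. The number of the 10 genes called was 3 with each other scaling and filter of low counts, 4 with DESeq2 and without the robust step, 2 with limma-voom, and 0 to 4 with single libraries left out. Over all genes the calls were 1284, of which 71.6% were higher, 2435 with DESeq2 and 25 to 3257 with single libraries left out. With no factor beyond the library total they were 1515, of which 61.4% were higher. Calls among the other pathway genes were 22, and 0 to 36 with single libraries left out. With the replicate number as a block, which the libraries' deviations gave little ground for, 1001 genes were called, among them Eng and Tgfbr3 but not Acvrl1 (adjusted p = 0.0593). Of the other named genes Pmepa1 (adjusted p = 0.0593), Bmper (0.0548) and Stab1 (0.0795) also missed the threshold with the block, which left 0 calls among the other Smads and regulators, and 1 higher and 1 lower among the BMP and ALK1 targets. At 81 to 142 counts per library, Smad4 had an SE of 0.275 on the log2 scale.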
